A study of Mus musculus with 12 samples.

Results

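The mitochondrial protein import and cristae genes comprised 39 of the 14675 genes in the deposited count table of a mouse sensory neuron RiboTag study. They were chosen by name alone: every gene whose symbol starts with Timm, Tomm, Chchd or Micos followed by a digit, and Immt, Apoo, Apool, Pam16, Dnajc19 and Grpel1. All 39 had reads in each of the 4 groups. A low-count filter left 38 of them, and 8085 genes in all, in the tests. Timm21, a subunit of the presequence translocase, did not pass, with 8 and 11 pooled counts in the 2 IP groups and 9 in each input group. Micos10 and Micos13 were found under older symbols, Minos1 and 2410015M20Rik.

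Nearly all mitochondrial proteins are made on cytosolic ribosomes and imported. Precursors cross the outer membrane through the TOM complex. From there the TIM23 complex and its motor pull presequence proteins into the matrix, the TIM22 complex inserts carrier proteins into the inner membrane with the help of small TIM chaperones, and the oxidoreductase Chchd4 folds small cysteine-rich proteins in the intermembrane space. The MICOS complex holds the inner membrane folds, or cristae, at their narrow junctions. In sensory neurons, whose axons are long, mitochondria are made largely in the cell body and carried along the axon.

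The mice were adults of the genotype RPL22HA+/+;Advillin-Cre+, in which Advillin-Cre, active in sensory neurons, switches on a hemagglutinin (HA) tag on the ribosomal protein RPL22. The 4 groups, each with 3 deposited columns, were RNA pulled down with anti-HA (IP) after treatment with AAV-shGpr151 plus AAV-e5'UTR, IP after AAV-shGpr151 alone, and the input RNA of the same 2 treatments in that order. Every group thus carried the short hairpin RNA against Gpr151, and none without it is used here. What the e5'UTR insert (e5UTR below) contains is not stated in the labels, which give both cultured neurons after a conditioning sciatic nerve injury and fresh dorsal root ganglia (DRGs) as the material. Libraries were made with a Nanopore cDNA-PCR kit, and values are estimated counts per gene.

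Column totals ran from 1514948 to 1517685 counts in IP with e5UTR, from 1381220 to 1382261 in IP shGpr151, from 975403 to 977366 in input with e5UTR and 984118 to 985277 in input shGpr151. Within a group the chi-square of the median gene over its 3 columns was 1.08 to 1.12 times what counting alone gives, so each group was treated as 1 sample, named a pool here. Sensory neuron markers checked the pull-down: 8 of 12 were higher in IP and 3 lower (Scn9a, Snap25 and Elavl4), and their sum was 8517 and 8111 CPM, here of library sizes scaled by TMM, edgeR's trimmed mean of ratios, in the IP pools, against 4059 and 4098 in the input pools. Markers of other cells were lower in sum in IP: 275 and 293 CPM against 1623 and 1526 for 8 satellite glia genes, 491 and 522 against 1196 and 1213 for 11 Schwann cell genes, 74.7 and 70.9 against 203 and 203 for 11 macrophage genes, 152 and 138 against 747 and 775 for 7 fibroblast genes, and 3.09 and 2.30 against 2363 and 2405 for 5 erythroid genes. Single genes went the other way. Of 6 satellite glia genes tested, 1 was called higher in IP (Glul, log2 1.94) and 3 lower. Of 8 macrophage genes tested, 1 was called higher (Csf1r, log2 1.315) and 6 lower. At 0 in both IP pools were Ncmap (Schwann cell), Mrc1 (macrophage), and Alas2 and Hbb-bt (erythroid). The 6 endothelial and mural genes stood at 71.7 and 59.1 CPM in IP and 79.5 and 67.2 CPM in input. The 13 mitochondrially encoded mRNAs, which cytosolic ribosomes do not translate, were all lower in IP, with a median log2 of -4.27. The part of these other cells and RNAs in the results below was not tested, and in bulk RNA fewer cells of a type cannot be told apart from less RNA per cell.

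IP was compared with input to see which import and cristae mRNAs the tagged ribosomes of sensory neurons carried. The family did not move as a block. Of the 38 genes tested, 10 (26.3%) were higher in IP, 9 (23.7%) were lower and 19 did not pass the test, against 33.5% higher, 36.2% lower and 69.7% called in either direction among all 8085 genes. The median log2 ratio was -0.02 over the members and 0.06 over all genes. The test was edgeR's quasi-likelihood test on the 4 pools, 2 IP against 2 input, with Benjamini-Hochberg adjustment over all genes. Both pools of a fraction differ in treatment, so the difference between treatments counts as spread.

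The direction rests on the scaling for many members. Scaled by library total in place of TMM, the log2 ratio of the median gene moved up by 0.94, 31 members were higher in IP and 3 were lower (all genes: 5046 higher and 1893 lower), and the members' median became 0.92 beside 1.00 for all genes. All 10 members called higher were above 0 under both scalings. The upward shift fixed this in advance, so it is no check of these 10 calls. Of the 9 called lower, Timm22, Timm17b and Chchd3 stayed below 0 under both, and the other 6, Timm8a1, Dnajc19, Timm9, Timm17a, Tomm5 and Timm23, were above 0 by library total.

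**Figure D1:**
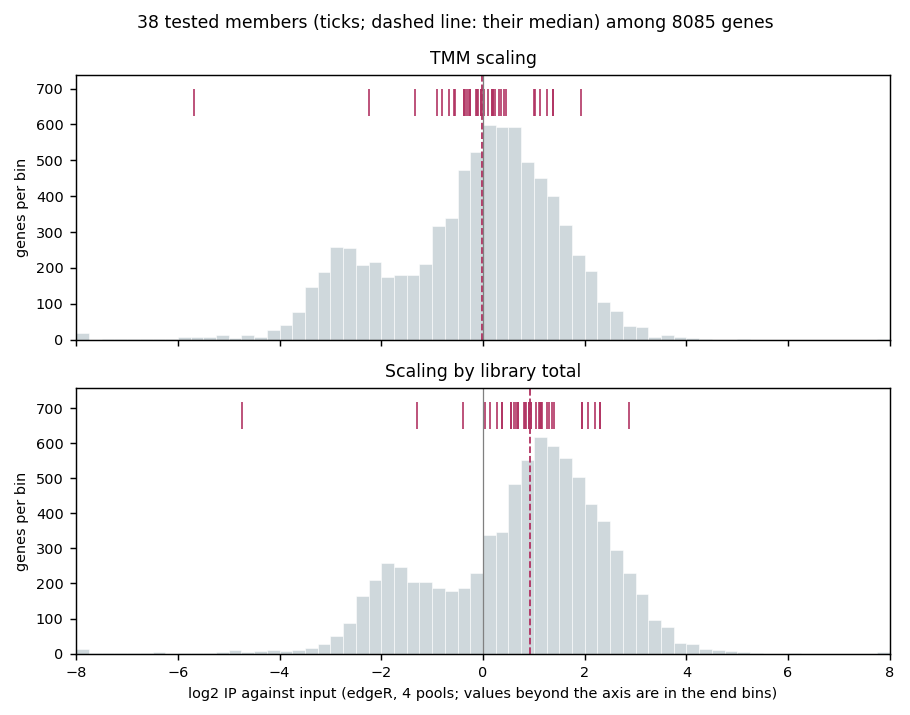
The grey bars count genes by their log2 ratio of IP to input in bins along the horizontal axis (8085 genes), with TMM scaling above and library-total scaling below, and the red ticks mark the 38 tested members. The dashed line is the members' median, which lies at -0.02 with TMM and 0.92 by library total, and the lone tick at the far left is Timm22.

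In the outer membrane translocase 4 of 9 genes were higher in IP (Tomm70a, Tomm6, Tomm34 and Tomm40), 1 was lower (Tomm5, whose sign turned by library total) and the median log2 was 0.41. The shares were 44.4% higher and 11.1% lower, beside 33.5% and 36.2% of all genes, and 55.6% called, beside 69.7%. Tomm70a, the receptor for carrier precursors that arrive bound to chaperones, had 39.2, 39.0 and 45.1 CPM in the columns of IP with e5UTR and 37.7, 29.5 and 35.3 in IP shGpr151, against 9.96, 9.96 and 18.3 in input with e5UTR and 21.1, 14.1 and 18.5 in input shGpr151. Every IP column lay above every input column. Its log2 ratio was 1.26 ± 0.22 (SE, adjusted p = 0.000192), a 2.39-fold difference, and the pooled counts gave 3.13 times (95% exact binomial interval 2.10 to 4.85) with e5UTR and 1.86 times (1.31 to 2.72) with shGpr151 alone. These intervals, here and below, cover counting error only, since reads of PCR-amplified cDNA are not independent molecules.

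Tomm34, a cytosolic co-chaperone of precursors, had 89 and 110 pooled counts in the IP pools and 16 and 19 in the input pools (log2 1.01 ± 0.28, adjusted p = 0.0053, and 0.0603 with DESeq2's Wald test). Its columns also did not overlap, at 11.9 to 20.9 CPM in IP and 5.69 to 11.3 CPM in input. Tomm40 forms the pore of the complex. It had 7.93, 5.44 and 11.9 CPM in IP with e5UTR and 12.9, 16.1 and 16.1 in IP shGpr151, against 9.96, 7.12 and 1.41 in input with e5UTR and 7.03, 5.63 and 2.84 in input shGpr151, and the fractions overlapped. Its log2 ratio of 1.00 ± 0.38 (adjusted p = 0.029) missed the threshold without the pool IP shGpr151 (0.53, adjusted p = 0.163), without the pool input shGpr151 (0.88, 0.0777), without column 3 of IP with e5UTR (0.0733), input with e5UTR (0.0789) or input shGpr151 (0.0579), and with DESeq2 and limma-voom.

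The small subunits that brace the pore went different ways. Tomm6 had 83.3, 61.8 and 72.4 CPM in IP with e5UTR and 102, 50.4 and 124 in IP shGpr151, against 15.7, 25.6 and 46.5 in input with e5UTR and 15.5, 73.2 and 45.5 in input shGpr151. Its log2 ratio was 1.11 ± 0.20 (adjusted p = 0.000181), but its fractions overlapped and its columns differed beyond counting in all 4 groups (chi-square p = 0.042, 2.3e-13, 0.0022 and 1.7e-06 in the order above). Genes that overlap Tomm6 in the RefSeq annotation of another build (Gm20517, Usp49 and Frs3) had at most 12 counts in a column. Tomm5 had 142 to 168 CPM in the IP columns and 198 to 246 CPM in the input columns (log2 -0.56 ± 0.13, adjusted p = 0.00132, and 0.38 by library total). Tomm7 had the most IP reads of the family, at 6543 and 6331 pooled counts, and 2280 and 2295 in input. Its ratio was 0.974 times (0.929 to 1.02) with e5UTR and 1.02 times (0.976 to 1.07) with shGpr151 alone.

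The presequence receptors did not pass the test. Tomm20 had 63.6 and 66.7 CPM in the IP pools and 83.4 and 76.8 CPM in the input pools (log2 -0.30 ± 0.14, adjusted p = 0.065). Tomm22, which also organises the complex, had 77.3 and 61.4 CPM in IP and 88.2 and 86.3 CPM in input (-0.33 ± 0.15, adjusted p = 0.0606). Both were above 0 by library total (0.64 and 0.61). With the 12 columns as samples, edgeR called Tomm20 and Tomm22 lower (adjusted p = 0.0279 and 0.00209). Both were also called lower in some of the fits that each dropped 1 column, and Tomm22 with DESeq2's size factors (0.0474). Tomm40l, a relative of Tomm40, was at log2 0.41 ± 0.28 (adjusted p = 0.201), with only 24 and 16 pooled counts in input. Tomm40 held 39.5% (31.0 to 48.5) and 53.8% (45.7 to 61.8) of the reads of the pair in the IP pools, against 35.1% (20.2 to 52.5) and 40.7% (22.4 to 61.2) in the input pools, and the columns overlapped between fractions.

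**Figure D2:**
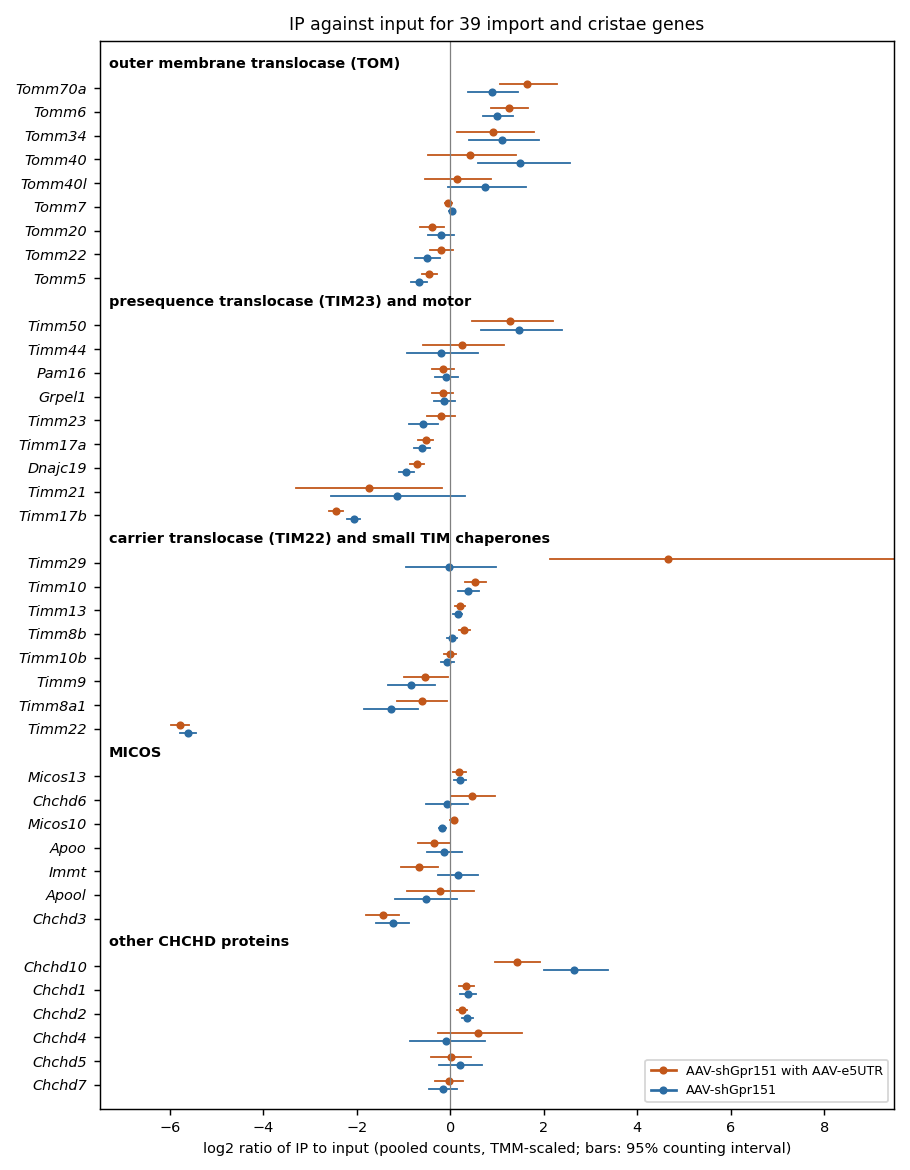
Each point is the log2 ratio of IP to input from TMM-scaled pooled counts of 1 gene (rows, grouped by complex), in orange with e5UTR and in blue with shGpr151 alone, and bars are 95% counting intervals. Timm22, Timm17b and Chchd3 lie left of 0 and Chchd10, Timm50, Tomm70a and Tomm6 right of 0 under both treatments, and the bar of Timm29 with e5UTR runs past the axis to a log2 ratio beyond 9.

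In the TIM23 complex and its motor 1 of 8 tested genes was higher in IP and 4 were lower, with a median log2 of -0.26. The shares were 12.5% higher and 50% lower, beside 33.5% and 36.2% of all genes, and 62.5% called, beside 69.7%. The higher gene was Timm50, the receptor that takes presequence proteins over from TOM. It had 18.8, 16.8 and 13.9 CPM in IP with e5UTR and 19.4, 18.3 and 18.7 in IP shGpr151, against 11.4, 4.27 and 4.23 in input with e5UTR and 5.62, 4.23 and 9.95 in input shGpr151. All IP columns were above all input columns, and the log2 ratio was 1.37 ± 0.27 (adjusted p = 0.000468). The channel subunit Timm23 had 54.0 and 43.9 CPM in the IP pools and 61.8 and 65.3 CPM in the input pools. Its log2 ratio of -0.38 ± 0.16 passed narrowly (adjusted p = 0.046), missed without either input pool, without the pool IP shGpr151, in 6 of the 12 fits that each dropped 1 column and under 3 other settings (adjusted p from 0.0502 to 0.228), and was 0.56 by library total.

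Timm17a and Timm17b are alternative forms of the other channel subunit, Tim17. Timm17b had 105, 99.3 and 103 CPM in IP with e5UTR and 135, 120 and 139 in IP shGpr151, against 522, 527 and 571 in input with e5UTR and 545, 566 and 495 in input shGpr151. The fractions stood far apart, and Timm17b was 4.73-fold lower in IP (log2 -2.24 ± 0.14, adjusted p = 4.09e-09, and -1.30 by library total). Timm17a had 125 to 169 CPM in the IP columns and 192 to 235 CPM in the input columns (-0.56 ± 0.13, adjusted p = 0.00123, and 0.38 by library total). A share within the pair does not depend on the scaling. Timm17a held 60.8% (58.4 to 63.2) and 51.8% (49.3 to 54.4) of the reads of both genes in IP with e5UTR and IP shGpr151, against 29.2% (27.0 to 31.5) and 28.1% (25.9 to 30.4) in input with e5UTR and input shGpr151. The 6 IP columns ran from 48.0% to 63.0% and the 6 input columns from 25.3% to 31.0%, so the mix of the pair differed between fractions with no overlap. How reads that fit both genes of such a pair were assigned is not stated.

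The motor subunits were mixed. Dnajc19, a J-protein that stimulates the matrix Hsp70, had 163 and 138 CPM in the IP pools and 265 and 264 CPM in the input pools (-0.82 ± 0.13, adjusted p = 6.47e-05, and 0.13 by library total). Its overlap partner Fxr1 had 16 to 65 counts in a column. Its regulator Pam16, the exchange factor Grpel1 and the Hsp70 tether Timm44 did not pass, at log2 -0.12 ± 0.14, -0.14 ± 0.13 and 0.01 ± 0.29. The columns of Pam16 differed beyond counting in IP with e5UTR, IP shGpr151 and input with e5UTR (chi-square p = 0.0028, 0.0027 and 0.024), but not in input shGpr151 (0.15). Timm44 had 56, 52, 16 and 22 pooled counts in IP with e5UTR, IP shGpr151, input with e5UTR and input shGpr151, which leaves ratios of 0.523 to 2.22 inside its 2 intervals.

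Among TIM22 subunits and small TIM chaperones 2 of 8 were higher in IP (Timm29 and Timm10) and 3 lower (Timm22, Timm8a1 and Timm9), with a median log2 of 0.07. The shares were 25% higher and 37.5% lower, beside 33.5% and 36.2% of all genes, and 62.5% called, beside 69.7%. Timm22, the channel of the carrier translocase, stood apart from the other members. It had 41.7, 40.0 and 33.7 CPM in IP with e5UTR and 56.6, 45.1 and 45.5 in IP shGpr151, against 2045, 2083 and 2021 in input with e5UTR and 2307, 2294 and 2375 in input shGpr151. Timm22 was 51.4-fold lower in IP (log2 -5.68 ± 0.15, adjusted p = 4.01e-12, and -4.74 by library total). Only 0.482% of the other tested genes had a lower log2 ratio. The family's summed level was 6054 and 5898 CPM in the IP pools and 8368 and 8658 CPM in the input pools, and without Timm22 6016 and 5849 CPM in IP and 6291 and 6302 CPM in input. The order turned by library total: the members held 0.818% and 0.804% of all counts in the IP pools, against 0.596% and 0.615% in the input pools, and without Timm22 0.813% and 0.798% against 0.448% and 0.447%. No gene overlapping Timm22 was found in the annotation used.

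Timm29, another TIM22 subunit in animals, had 20, 31 and 23 counts in IP with e5UTR and 15, 9 and 13 in IP shGpr151, against 0, 1 and 0 in input with e5UTR and 3, 6 and 5 in input shGpr151. Its log2 ratio of 1.38 ± 0.58 (adjusted p = 0.0489) came from the e5UTR pools: it was 25.1 times (4.37 to 1005) with e5UTR, on 1 input count, and 0.980 times (0.518 to 1.96) with shGpr151 alone. Without the pool input with e5UTR it was 0.48 (adjusted p = 0.371), without the pool IP with e5UTR 0.95 (0.349), and it also missed under 11 other settings. The gene Yipf2, which overlaps it, had 1 to 17 counts in all columns but 2 at 0.

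The small TIM chaperones escort carriers and other membrane proteins across the intermembrane space. Timm9 and Timm10 form 1 hexamer, yet their mRNAs went opposite ways in the TMM-scaled test. Timm10 had 137 and 126 CPM in the IP pools and 94.4 and 96.8 CPM in the input pools (0.46 ± 0.13, adjusted p = 0.00627), and its columns did not overlap, but it missed without the pool input with e5UTR (0.108) or input shGpr151 (0.0766) and with DESeq2's Wald test (0.0563). Timm9 had 19.2 and 15.6 CPM in IP and 27.8 and 27.7 CPM in input (-0.67 ± 0.20, adjusted p = 0.00994), and its columns did not overlap either, but by library total it was at 0.27 and it missed without the pool IP shGpr151 (adjusted p = 0.0537) and with DESeq2's Wald test (0.0713). Timm8a1, on the X chromosome, had 14.8 and 10.1 CPM in IP and 22.5 and 24.3 CPM in input (-0.91 ± 0.24, adjusted p = 0.00418, and 0.03 by library total). Its relative Timm8b and their partner Timm13 did not pass, at 0.17 ± 0.12 and 0.18 ± 0.11, although the IP columns lay above the input columns for both (418 to 483 CPM against 358 to 412 for Timm8b, 589 to 643 against 490 to 564 for Timm13). Timm8a1 made up 3.08% (2.49 to 3.77) and 2.32% (1.77 to 3.00) of the reads of Timm8a1 and Timm8b in the IP pools, against 5.63% (4.16 to 7.42) and 5.57% (4.17 to 7.26) in the input pools, without overlap between columns. Timm10b was at -0.03 ± 0.12.

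In MICOS 1 of 7 genes passed, Chchd3 (14.3%, beside 69.7% of all genes), and the median log2 was -0.25. Chchd3 (Mic19) links the core subunit Immt to the outer membrane. It had 20.8, 22.2 and 27.3 CPM in IP with e5UTR and 36.1, 23.1 and 19.8 in IP shGpr151, against 61.2, 61.2 and 63.4 in input with e5UTR and 60.4, 59.2 and 61.1 in input shGpr151. The fractions did not overlap, and Chchd3 was 2.52-fold lower in IP (log2 -1.33 ± 0.16, adjusted p = 5.93e-06, and -0.39 by library total). The columns of Chchd3 differed beyond counting in IP shGpr151 (chi-square p = 0.0058), but not in the other groups. Its paralog Chchd6 (Mic25) was at 0.20 ± 0.20 (adjusted p = 0.392). Chchd3 held 41.5% (36.2 to 46.9) and 49.8% (44.0 to 55.7) of the reads of the pair in the IP pools, against 72.8% (65.7 to 79.1) and 68.8% (61.6 to 75.4) in the input pools. The columns gave 38.2% to 59.8% in IP and 67.2% to 76.3% in input, which did not overlap.

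The other MICOS genes did not pass. Micos10 (Mic10), whose oligomers bend the membrane at the junction, was at -0.05 ± 0.11 on 5492 and 4475 pooled counts in IP and 1774 and 1864 in input, and Micos13, which joins the MICOS subcomplexes, was at 0.20 ± 0.11. Immt (Mic60), the scaffold of the complex, had 26.7 and 33.1 CPM in the IP pools and 42.2 and 29.6 CPM in the input pools (-0.27 ± 0.21, adjusted p = 0.267). Its ratio was 0.633 (0.485 to 0.829) with e5UTR and 1.12 (0.835 to 1.52) with shGpr151 alone. The apolipoprotein-like subunits Apoo and Apool were at -0.25 ± 0.18 and -0.38 ± 0.26. Apoo held 79.9% (75.0 to 84.2) and 77.7% (72.1 to 82.6) of the reads of the 2 in the IP pools, against 81.2% (73.5 to 87.5) and 72.6% (63.4 to 80.5) in the input pools, with overlapping columns. The signs of Immt, Apoo, Apool and Micos10 turned by library total.

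Of the remaining CHCHD genes 3 of 6 were higher in IP (50%, beside 33.5% of all genes), the other 3 did not pass, and the median log2 was 0.27. Chchd10, an intermembrane space protein whose human counterpart is mutated in a form of motor neuron disease, had the highest ratio of the family. It had 54.1, 55.8 and 59.0 CPM in IP with e5UTR and 61.4, 59.6 and 60.5 in IP shGpr151, against 25.6, 15.7 and 19.7 in input with e5UTR and 5.62, 9.86 and 12.8 in input shGpr151. The fractions did not overlap, and Chchd10 was 3.82-fold higher in IP (log2 1.93 ± 0.25, adjusted p = 8.74e-06). Its paralog Chchd2 had 504 and 528 CPM in the IP pools and 424 and 410 CPM in the input pools (0.31 ± 0.11, adjusted p = 0.0238). Chchd10 made up 9.91% (8.93 to 11.0) and 10.2% (9.16 to 11.2) of the reads of the pair in IP, against 4.63% (3.37 to 6.18) and 2.28% (1.40 to 3.49) in input, again without overlap between columns (9.53% to 10.6% against 1.34% to 5.71%).

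Chchd1, a protein of the small mitochondrial ribosomal subunit, rose by 0.36 ± 0.12 (adjusted p = 0.0187), with 227 to 274 CPM in the IP columns and 159 to 215 CPM in the input columns. The calls of Chchd1 and Chchd2 were lost without either input pool (lowest adjusted p = 0.11) and with DESeq2's Wald test (0.0993 and 0.128), and that of Chchd2 also with treatment as a term (0.0522). Chchd4, the import oxidoreductase, had 62 and 51 pooled counts in IP and 14 and 20 in input and was at 0.23 ± 0.30 (adjusted p = 0.504). Chchd5 and Chchd7 were at 0.10 ± 0.19 and -0.10 ± 0.14.

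**Figure D3:**
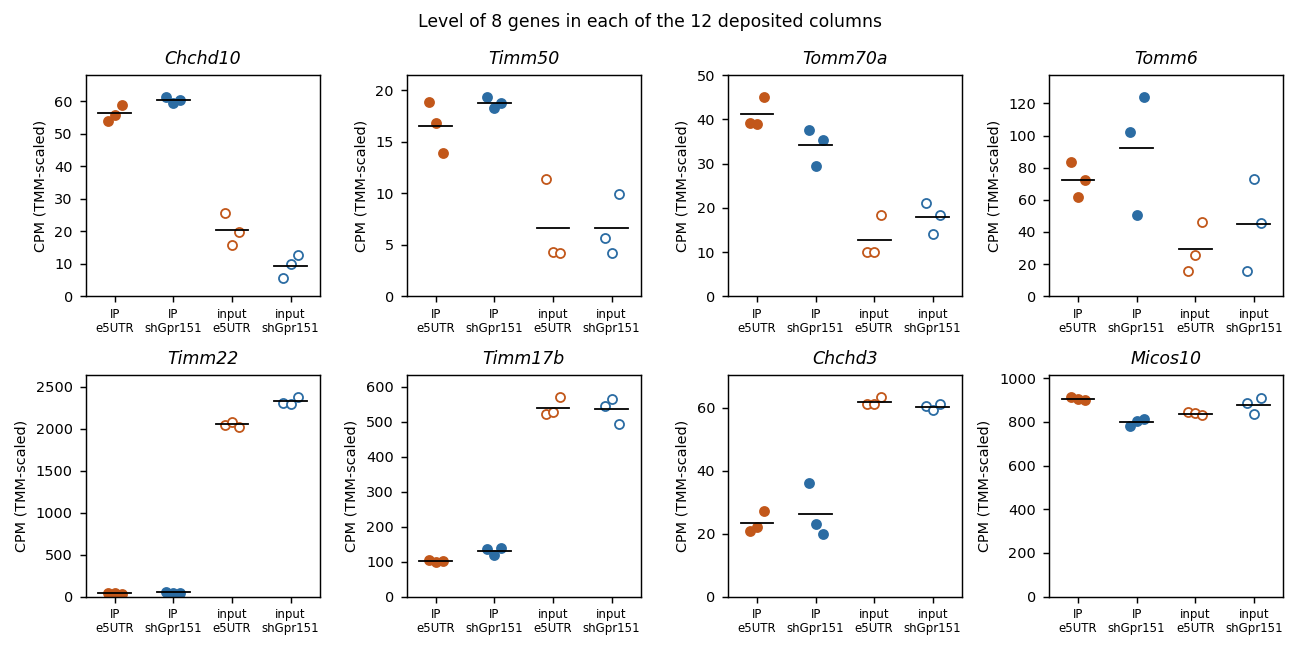
Dots show the TMM-scaled CPM (vertical axis) of 8 genes in each deposited column, filled for IP and open for input, orange with e5UTR and blue with shGpr151 alone, and lines are the means of 3 columns. In the upper row IP lies above input, with overlapping columns for Tomm6, and in the lower row IP lies below input for Timm22, Timm17b and Chchd3, while Micos10 is close to level.

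A list of 38 other import, sorting and cristae genes outside the rule, 32 of them tested, had 14 higher and 3 lower in IP, 53.1% in all beside the 69.7% of all genes, with a median log2 of 0.50. The 3 highest were proteases and a chaperone of the matrix and inner membrane: Lonp1 (3.02 ± 0.31), Trap1 (2.14 ± 0.32) and Spg7 (1.83 ± 0.29). Their input pools, with e5UTR first, held few counts: 5 and 12 for Lonp1, 8 and 8 for Trap1 and 13 and 9 for Spg7. The matrix Hsp70 Hspa9, which drives the TIM23 motor, was at 1.39 ± 0.14 and 2.62 times in each treatment, and the cristae-shaping GTPase Opa1 at 1.54 ± 0.28. Samm50, the channel that inserts barrel proteins in the outer membrane, was at 0.55 ± 0.20 (adjusted p = 0.0248). Gfer, which re-oxidises Chchd4, and the processing peptidase Pmpcb did not pass (0.59 ± 0.31 and 0.57 ± 0.26). The 3 lower genes were Dnajc11 (-2.65), a J-protein at the MICOS complex, the inner membrane peptidase subunit Immp1l (-0.90) and the chaperonin partner Hspe1 (-0.30). Immp1l and Hspe1 were above 0 by library total, and the calls of Samm50 and Hspe1 were lost without either input pool (lowest adjusted p = 0.0776) and with DESeq2's Wald test (0.181 and 0.0722), that of Samm50 also without the pool IP shGpr151 (0.068) or column 1 of input with e5UTR (0.0522), and that of Hspe1 without a filter (0.228) and with treatment as a term (0.0542).

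AAV-shGpr151 with AAV-e5'UTR was compared with AAV-shGpr151 within IP, with edgeR's test on all 12 columns, in which the spread comes from columns of the same pool. This test is on the reads of 2 pools: it compares these libraries, not the treatments, and has no replicate check. Of 38 members 4 were higher and 1 lower, 13.2% called, beside 10.9% of all genes (4.69% higher and 6.25% lower). The 5 differences were small. Micos10 had 914, 906 and 900 CPM with e5UTR and 783, 806 and 813 CPM with shGpr151 alone (log2 0.18 ± 0.03, adjusted p = 0.00015). Tomm22 had 79.3, 78.1 and 77.8 CPM against 59.3, 63.9 and 63.2 CPM (0.34 ± 0.10, adjusted p = 0.025). The columns of both genes did not overlap between treatments.

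Dnajc19 was likewise higher with e5UTR, at 175, 159 and 162 CPM against 130, 142 and 146 CPM (0.24 ± 0.07, adjusted p = 0.027), and Timm8b at 457, 483 and 476 CPM against 436, 431 and 418 CPM (0.14 ± 0.04, adjusted p = 0.0238). Timm17b was lower, at 105, 99.3 and 103 CPM with e5UTR against 135, 120 and 139 CPM with shGpr151 alone (-0.36 ± 0.08, adjusted p = 0.00219), a ratio of pooled counts of 0.777 (0.697 to 0.865). The call of Timm17b held in every setting run. The downward shifts given next favour a lower call, so holding in those settings is no check of it. The 4 higher calls moved with the scaling: with DESeq2's size factors in edgeR the median gene shifted by -0.07 and 1 member was called higher and 5 lower (all genes: 184 higher and 713 lower, against 379 higher and 505 lower with TMM). With any 1 IP column left out the median gene shifted by -0.09 to -0.10, and 0 members were called higher and 4 or 5 lower (all genes: 86 to 109 higher and 626 to 647 lower). DESeq2's Wald test called 0 members higher and 3 lower (all genes: 93 and 542). A fit of the 6 IP columns alone, added after the data were seen, gave 4 members higher and 2 lower (all genes: 430 and 491).

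Of the members that missed the threshold in IP, Tomm40 had the largest difference downward, with 51 pooled counts with e5UTR and 84 with shGpr151 alone, a ratio of 0.558 (0.386 to 0.800, adjusted p = 0.064). Timm29 had the largest upward, with 74 and 37 pooled counts, a ratio of 1.84 (1.22 to 2.81, adjusted p = 0.0621, and 0.0406 with limma-voom). Timm23 was at 1.23 (1.04 to 1.46), Immt at 0.806 (0.650 to 1.00), Chchd3 at 0.888 (0.700 to 1.13), and Tomm20 at 0.954 (0.826 to 1.10). The counting interval of e5UTR over shGpr151 left out 1 for 16 of the 38 tested members in IP (42.1%) and 5 in input (13.2%), beside 26.2% and 5.54% of all genes tested. It covers counting error only and is no call of the test. The narrowest intervals in IP belonged to genes with many reads. They were those of Tomm7, at 0.9502 (0.9178 to 0.9837), and Micos10, at 1.128 (1.084 to 1.174), and both left out 1. Tomm7 was not called by edgeR's test (adjusted p = 0.1408). Somewhat wider were Timm13 at 1.04 (0.991 to 1.09) and Chchd2 at 0.955 (0.908 to 1.00), which did not leave out 1.

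**Figure D4:**
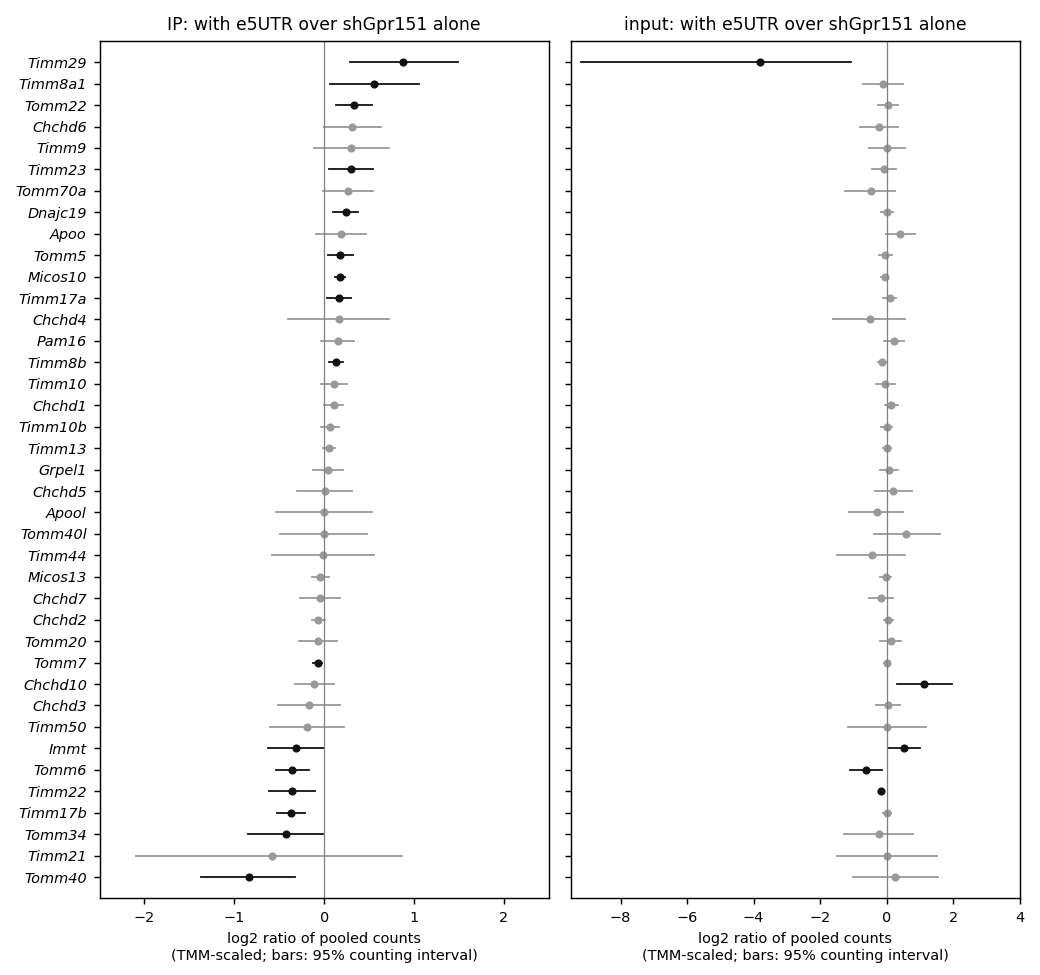
Points are log2 ratios of pooled, TMM-scaled counts of AAV-shGpr151 with e5UTR over AAV-shGpr151 alone for the 39 members (rows, sorted by the IP value), in IP on the left and in input on the right, with 95% counting intervals and different horizontal scales. Black points have intervals that leave out 1 as a ratio (16 in IP and 5 in input, beside 26.2% and 5.54% of all genes tested), and Timm22 lies below 0 on both sides.

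Within input, the same comparison called 1 member, 2.63%, beside 0.198% of all genes. Timm22 was lower with e5UTR, at 2045, 2083 and 2021 CPM against 2307, 2294 and 2375 CPM with shGpr151 alone (log2 -0.18 ± 0.03, adjusted p = 0.0104), a ratio of 0.881 (0.846 to 0.918). Its call was lost without input with e5UTR replicate 1 (adjusted p = 0.0537) or 3 (0.0714) and without input shGpr151 replicate 3 (0.108). In IP the ratio of Timm22 was 0.782 (0.654 to 0.934), which did not pass (adjusted p = 0.0552). It was called lower in IP by library total (0.041), with DESeq2's size factors (0.0137), with a mean of at least 10 counts (0.048), with DESeq2's Wald test (0.0135) and in 4 of the 6 fits that each dropped 1 IP column (0.008 to 0.0149). The median gene itself moved down by library total (-0.02), with DESeq2's size factors and Wald test (-0.07) and in those 4 fits (-0.09 to -0.10). It hardly moved with the mean filter (0.0002). A downward shift favours a lower call, so the shifted settings are no check of it. The 2 differences, in IP and in input, were not shown to differ by the test (interaction -0.17 ± 0.12, adjusted p = 0.604). No member was called higher in input by edgeR, DESeq2 or limma-voom, and edgeR called 1 of all 8085 genes higher. With edgeR, 4 of 38 members had an unadjusted p under 0.05 in either direction, beside 394 of the 8085 genes.

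The interaction asks whether the ratio of IP to input differed between AAV-shGpr151 with AAV-e5'UTR and AAV-shGpr151 alone. By the same test on reads, 3 members had a higher and 2 a lower ratio with e5UTR, 13.2% called, beside 5.11% of all genes. They were Timm29, Timm8b and Micos10 upward and Chchd10 and Timm17b downward. Chchd10 was higher in IP under both treatments, 2.69 times (1.96 to 3.79) with e5UTR and 6.27 times (4.0 to 10.4) with shGpr151 alone. Its IP levels were close, at 0.928 times (0.796 to 1.08) with e5UTR over shGpr151, and its input pools held 43 and 20 counts. For Immt the interaction was -0.82 ± 0.24 and did not pass (adjusted p = 0.068).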

How the data were processed

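The authors deposited a table of estimated counts per Ensembl gene, written as whole numbers, with 1 column per sample. Salmon, minimap2 and the builds GRCm39 and mm39 were used, per the submitters' processing notes, which give no roles, and counting options are not stated. Symbols were found for 13191 of 14675 IDs. The RefSeq tables used are of GRCm38.p6, so no coordinates are given. Members, gene lists and tests were chosen with earlier results of these data known. Values in full are given for members called in a comparison of treatments or in the interaction, the 6 highest and 6 lowest called for IP against input, core subunits of each complex and, of the other import genes, 5 core genes and the 3 highest and 3 lowest called. The shares within 6 related pairs were added after the values were seen.

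Tests used edgeR 4.0.16 in R 4.3.3 with TMM scaling, filterByExpr (minimum count 10, minimum total 15) and Benjamini-Hochberg adjustment over 8085 genes at 0.05. The spread (biological coefficient of variation) was 10.3% over the 4 pools and 2.58% over the 12 columns. The 95% intervals of ratios and shares are exact binomial ones (Clopper-Pearson) on pooled counts. The code was tested on simulated data. Alternatives used library totals, DESeq2 1.42.0, limma 3.58.1, other filters, the replicate block and leaving out columns or pools. Nothing in the labels says that columns came from separate animals, so the spread behind each p-value, among columns or pools, may be technical only.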

Additional observations from a re-analysis of the deposited data

Results flagged for a closer look

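For 5 members the e5UTR difference in IP differed from that in input by the interaction test (edgeR, all 12 columns), a test on reads of the pools with no replicate check. The largest was Timm29, at log2 4.43 ± 0.99 (adjusted p = 0.0048), on 74 and 37 pooled counts in IP and 1 and 14 in input, each with e5UTR first. Input with e5UTR held 1 read, and there the counting interval of the IP to input ratio runs from 4.37 to 1005.

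Chchd10 was at -1.21 ± 0.36 (adjusted p = 0.0443), on 341 and 338 pooled counts in IP and 43 and 20 in input. Without input with e5UTR replicate 1 the value was -1.01 (adjusted p = 0.222) and without input shGpr151 replicate 1 it was -0.94 (0.224), and the call was also lost without input with e5UTR replicate 3 (0.0819), without input shGpr151 replicate 2 (0.0922), without a filter (0.0724), with limma-voom (0.0785) and with the replicate block (-1.21, 0.0638). Timm17b was at -0.37 ± 0.10 (adjusted p = 0.0283), with ratios of IP to input of 0.184 with e5UTR and 0.239 with shGpr151 alone. Its call was lost without input with e5UTR replicate 3 (adjusted p = 0.0924) or input shGpr151 replicate 3 (0.0824).

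Timm8b was at 0.27 ± 0.08 (adjusted p = 0.0328) and Micos10 at 0.24 ± 0.05 (adjusted p = 0.00418). Both were lost with DESeq2's size factors (adjusted p = 0.162 and 0.0529), with its Wald test (0.228 and 0.0935) and without any 1 IP column. The call of Timm8b was also lost by library total (0.0533), without a filter (0.0615), with limma-voom (0.0527) and in 4 of the 6 fits that each dropped 1 input column (0.0742 to 0.115).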

How the results depend on the processing

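For IP against input with 1 column left out, 2577 to 2666 of all genes were called higher and 2868 to 2942 lower. In the same fits 8 to 10 members were called higher and 8 to 10 lower. The wider range of members called higher, given below, comes from leaving out a pool. Those fits leave a fraction with 1 pool, so that range is not to be set beside the counts of all genes given here. Scaling by library total gave 31 members higher and 3 lower (all genes: 5046 and 1893), and DESeq2's Wald test 4 higher and 7 lower (1811 and 2600). Leaving out 1 pool or 1 column gave 6 to 13 higher and 8 to 10 lower. By library total 17 members changed sign: Tomm5 (0.38), Tomm7 (0.94), Tomm20 (0.64), Tomm22 (0.61), Timm17a (0.38), Timm23 (0.56), Pam16 (0.82), Dnajc19 (0.13), Grpel1 (0.80), Timm8a1 (0.03), Timm9 (0.27), Timm10b (0.91), Immt (0.68), Apoo (0.69), Apool (0.56), Micos10 (0.90) and Chchd7 (0.84), as did Hspe1 (0.64) and Immp1l (0.04). Of the log2 ratios that changed sign under other settings, that of Tomm7 without the pool IP with e5UTR (0.13, adjusted p = 0.0165) was called, and the others were not. Without a filter they were 0.12 for Tomm7, 0.01 for Pam16, 0.09 for Timm10b, 0.08 for Micos10 and 0.03 for Chchd7. With a mean of at least 10 counts per column, Tomm7 was at 0.02. With the 12 columns as samples Tomm7 was at 0.04 and Timm10b at 0.01, and the replicate block gave the same 2 values. Timm44 was at -0.01 with DESeq2's size factors and with its Wald test. With a pool or column left out, Tomm7 ran from -0.04 to 0.13, Timm44 from -0.20 to 0.25, Timm10b from -0.06 to 0.03, Immt from -0.50 to 0.01, Micos10 from -0.08 to 0.04 and Chchd7 from -0.18 to 0.01. Where leaving out a pool left a fraction with 1, that pool was assumed to vary like the others.

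For e5UTR in IP, the members called lower numbered 3 by library total, 5 with DESeq2's size factors and 3 with its Wald test (all genes: 556, 713 and 542). They numbered 2 with a mean of at least 10 counts (513 of 6759 genes), 3 with limma-voom (all genes: 530) and 2 with the IP columns alone (491). Those called higher numbered 1 with DESeq2's size factors (all genes: 184) and 0 with its Wald test (93). With a column left out the members ran from 0 to 4 higher and from 1 to 5 lower (all genes: 86 to 388 and 500 to 647). For e5UTR in input, 0 to 1 members were called lower with a column left out (all genes: 11 to 16). The sign changed for 3 values that were not called, over -0.03 to 0.10 for Tomm22, -0.04 to 0.05 for Timm17b and -0.06 to 0.06 for Dnajc19. For the interaction, 1 member was called higher with DESeq2's size factors (all genes: 56) and 0 with its Wald test (38), which gave Timm29 no adjusted p. Called lower was 1 member without a filter (262 of 14675 genes), with limma-voom (all genes: 267) and with the replicate block (274). With a column left out 1 to 3 members were higher and 0 to 4 lower (all genes: 35 to 117 and 250 to 380). The causes of these changes were not tested.

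Replicate numbers did not pair the samples: deviations of same-numbered columns correlated at -0.067 to 0.061. The replicate block left the members' e5UTR calls in IP at 4 higher and 1 lower (all genes: 345 and 469). It ended the interaction call of Chchd10 (-1.21, adjusted p = 0.0638). Depth limits the values of genes with fewer than 30 pooled counts in an input group. In the family these include Tomm34, Tomm40, Tomm40l, Timm44, Timm50, Timm29, Apool, Chchd4 and Chchd10. Tomm70a, with 27 pooled counts in input with e5UTR and 38 in input shGpr151, is another. Outside the family they include Lonp1, Trap1, Spg7 and Opa1.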
